A study of Mus musculus with 2 samples.

Results

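The regions described here are the strongest distal DNase-seq peaks shared by 2 libraries of mouse left cerebral cortex. They were chosen by position and by the deposited peak value: a peak on chromosomes 1 to 19, over 1 kb from every transcription start site (TSS) of the GENCODE basic annotation, that overlapped 1 peak of the other library one to one and had a value of at least 4 in both. Of 39196 such distal pairs, 533 met the rule (1.36%). Among the 18312 pairs within 1 kb of a TSS, 3874 had a value of at least 4 in both libraries (21.2%). The 533 pairs are called members below, the 38663 distal pairs under the threshold are the other distal pairs, and the 3874 are the strong promoter pairs. Because the value chose the members, every contrast with other pairs is a description without a test. Footprints and q-values come from the same DNase I cuts and are described in the same way.

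The tissue came from adult male mice of strain B6CASTF1/J, the F1 hybrid of a C57BL/6 strain and the wild-derived CAST strain, aged 18 to 20 months. There was a single group with no treatment, and the libraries are labelled biological replicates 1 and 2 from separate tissue samples under the same donor entry. It is therefore not stated whether 2 animals were used, and the spread between libraries may be technical. The reads were set against a C57BL/6J genome, so CAST sequence is not represented. Promoters of all 20 pan-neuronal genes and of 19 of 20 excitatory neuron genes were open in each library, against 2 and 1 of 39 Hox genes. Of 20 genes each, promoters were open in replicates 1 and 2 for 15 and 16 astrocyte, 15 and 14 oligodendrocyte, 12 and 11 inhibitory neuron, 9 and 7 vascular and 6 and 6 microglia genes, and for 7 and 9 of 15 oligodendrocyte precursor genes. Neuronal and glial promoters were thus both open in this bulk tissue.

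DNase I cuts DNA where nucleosomes are displaced, and a factor bound inside such a stretch leaves a short protected footprint. Distal open regions include enhancers, insulators bound by the zinc finger protein CTCF, and unannotated start sites. The genes for transfer RNA (tRNA) are also open, and are transcribed by RNA polymerase III from control elements inside the gene.

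Sequences that carry the main findings are given first. All are from the mm10 (GRCm38) reference, plus strand, and none overlaps an exon of the comprehensive GENCODE annotation. RefSeq has the tRNA gene in one of them, and exons of noncoding RNAs over the stretches near Mxi1 and Nr1d1. The first pair comes from the member with the highest value and the member ranked 7, with capitals over the part in which they aligned.
Rank 1, chr6:49236421-49236620: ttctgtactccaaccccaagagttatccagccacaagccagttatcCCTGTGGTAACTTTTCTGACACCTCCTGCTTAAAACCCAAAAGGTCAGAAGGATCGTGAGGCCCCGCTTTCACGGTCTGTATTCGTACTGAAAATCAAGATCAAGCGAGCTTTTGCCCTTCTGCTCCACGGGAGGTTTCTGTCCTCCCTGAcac
Rank 7, chr12:78350861-78351100: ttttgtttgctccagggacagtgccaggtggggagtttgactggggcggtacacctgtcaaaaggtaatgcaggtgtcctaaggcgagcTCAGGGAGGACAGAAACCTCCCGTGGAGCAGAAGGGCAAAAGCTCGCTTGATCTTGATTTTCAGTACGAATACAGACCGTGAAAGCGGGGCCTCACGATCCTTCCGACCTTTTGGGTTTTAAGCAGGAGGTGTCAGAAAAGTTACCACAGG
The next is the strongest member over a tRNA gene, with the gene for a leucine tRNA, on the minus strand, in capitals.
tRNA-Leu, chr8:94704001-94704260: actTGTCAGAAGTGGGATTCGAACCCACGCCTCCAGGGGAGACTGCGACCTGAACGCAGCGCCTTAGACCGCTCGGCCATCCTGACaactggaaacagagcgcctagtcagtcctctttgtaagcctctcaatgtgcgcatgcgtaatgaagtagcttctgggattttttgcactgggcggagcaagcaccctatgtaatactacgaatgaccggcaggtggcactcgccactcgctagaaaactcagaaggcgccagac
The following stretches hold the motif matches discussed below, with the match in capitals. The first 2 are the strongest members with the CTCF consensus in a footprint of both libraries, in introns of Camta1 and Nuak1.
CTCF near Camta1, chr4:151141691-151141762: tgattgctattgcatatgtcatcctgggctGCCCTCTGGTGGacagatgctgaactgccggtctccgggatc
CTCF near Nuak1, chr10:84438174-84438245: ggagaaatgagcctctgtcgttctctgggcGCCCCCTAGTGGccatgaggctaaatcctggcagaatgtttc
NFI, chr8:126517342-126517414: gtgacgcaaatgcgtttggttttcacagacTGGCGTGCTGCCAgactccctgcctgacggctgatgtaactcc
RFX, chr2:152406272-152406335: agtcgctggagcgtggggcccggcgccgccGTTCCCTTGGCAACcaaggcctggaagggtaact
NRF1, chr8:70865736-70865788: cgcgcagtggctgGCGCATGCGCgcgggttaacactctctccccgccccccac
ZNF143, chr12:29291126-29291177: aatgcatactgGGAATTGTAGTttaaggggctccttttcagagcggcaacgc
CRE near Mxi1, chr19:53314300-53314367: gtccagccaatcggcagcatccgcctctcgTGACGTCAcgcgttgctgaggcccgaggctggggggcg
The last set lies near genes of the circadian clock, and only 1 of the 2 CACGTG sites near Bhlhe41 is in capitals.
CACGTG near Hlf, chr11:90418081-90418146: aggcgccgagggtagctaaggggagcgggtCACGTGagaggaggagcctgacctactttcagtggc
CACGTG near Hlf, chr11:90369827-90369865: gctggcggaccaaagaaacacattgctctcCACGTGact
CACGTG near Nr1d1, chr11:98783512-98783577: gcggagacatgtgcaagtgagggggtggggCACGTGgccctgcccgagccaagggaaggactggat
CACGTG near Bhlhe41, chr6:145855835-145855900: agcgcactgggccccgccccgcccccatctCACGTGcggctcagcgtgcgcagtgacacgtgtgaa

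The members reached a median value of 6.22 in the first library and 4.96 in the second, where the other distal pairs had 1.23 and 1.30. The highest values were 46.6 and 45.3. Most members were close to the threshold, with 309 at a smaller value of 4 to 5 and 25 at 8 or more. The 2 values lay within 2-fold of each other in 518 of the 533 (97.2%), against 83.8% of other distal pairs and 99.3% of strong promoter pairs. The rule left out pairs that reached 4 in 1 library only, so this share does not measure agreement of the libraries. In replicate 1, 399 members (74.9%) were higher, against 49.3% and 68.2%. Just inside the threshold stood pairs near Ptma, Capn13 and Zfp516, each with 4.00382 in replicate 2. Just outside stood pairs near Zfp704 and Adamts17, with 3.99824 in replicate 1, and near Egr3, with 3.99715 in replicate 2.

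**Figure D1:**
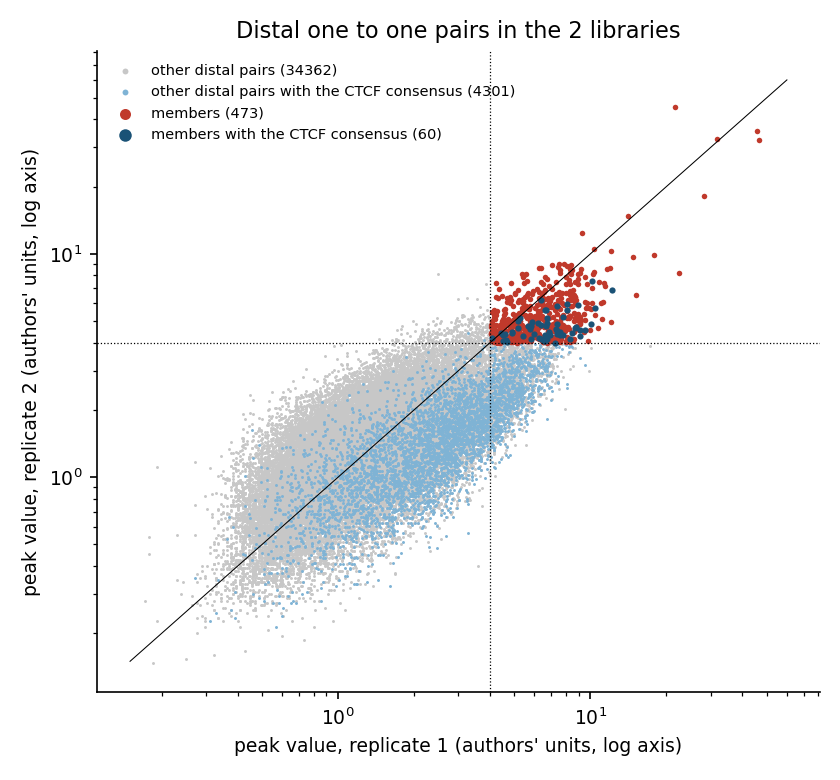
Value of each distal pair in replicate 1 (x axis) and replicate 2 (y axis), in the authors' units on log axes, with dotted lines at 4 and a solid line of equal values. Members (473 without and 60 with the CTCF consensus) fill the upper right corner, and the other pairs with the CTCF consensus lie mostly below the line of equal values.

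The strongest members held sequence that recurs in the genome. Of the 12 with the highest mean value, 10 contained a 36-base window found at more than 1 place in the reference, against 53 of all 533 members (9.94%) and 5.01% of the other distal pairs. Of the 25 members with a smaller value of 8 or more, 12 held such a window (48.0%). A single such window was enough to count, as at rank 64 with 1 of 205, and in 8 members at least 50% of the windows recurred. A read that lies wholly within such a window cannot be placed uniquely by its sequence. The part of recurring sequence in these values was not tested. None of the members aligned to mitochondrial DNA over 50 bp or more.

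Members ranked 1, 2, 7 and 12 were linked by 5 pairwise alignments, with none between ranks 2 and 12. What the shared sequence is was not identified here, and no list of regions prone to mapping problems was used. The genes below therefore give only the place in the reference. The first, intergenic and 21464 bp from the TSS of Igf2bp3, had a value of 45.5 in replicate 1 and 35.5 in replicate 2. Rank 2, in an exon of Lars2 outside the coding sequence, had 46.6 and 32.3, and Lars2 encodes the mitochondrial leucyl-tRNA synthetase. Rank 7, in an intron of the gephyrin gene Gphn, had 14.1 and 14.7. Rank 12, 11112 bp from Hic2, had 15.2 and 6.51. The first member matched rank 7 at 99.3% over 151 bp and rank 2 at 98.7% over 79 bp, and the 3 lie on chromosomes 6, 12 and 9. The alignment of ranks 1 and 7, printed above, is between opposite strands. Members ranked 10 and 268, both on chromosome 6 (11.1 and 5.66 on average), were identical over 84 bp.

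Other members among the 12 stood in different settings. Rank 3 on chromosome 3 (5860361 to 5860530) had 21.7 and 45.3, the only one of the first 3 that was higher in replicate 2, and all of its 135 windows recurred. Rank 4 lay in an intron of Il31ra, an interleukin receptor gene, with 31.8 and 32.7. Rank 9, in the predicted gene Gm10722, was wholly repeat-masked and had windows found at up to 63 places, with 14.7 and 9.69. Rank 6, in an intron of Jarid2 (22.4 and 8.23), and rank 11, in an intron 1115 bp from the TSS of the pseudogene Pisd-ps1 (9.28 and 12.4), held 26 and 75 recurring windows. Ranks 5 and 8 were the 2 without a recurring window. Rank 5 lay in an exon of the ceramide synthase gene Cers5 outside its coding sequence (28.3 and 18.1), and was 400 and 440 bp wide. Rank 8 lay in an exon of the ubiquilin gene Ubqln1 outside its coding sequence (17.8 and 9.92).

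Repeat-masked sequence was rare elsewhere among the members. At least 50% of the bases were masked in 3 of 533 members (0.563%) and in 1.98% of the other distal pairs, and 284 members (53.3%) had no masked base. Those 3 were rank 9 and the members near Pdia4 (72.5% masked) and Klrb1c (55.5%), and all 3 held recurring windows.

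A tRNA gene was overlapped by 27 members (5.07%), against 0.313% of the other distal pairs and 0.516% of the strong promoter pairs. These were 27 of the 386 tRNA genes that RefSeq lists on chromosomes 1 to 19, and any distal pair overlapped 148 of them. The genes served 15 amino acids, led by leucine and threonine with 4 each and histidine with 3. The strongest, near Pllp, had 10.2 and 8.11, followed by an arginine tRNA on chromosome 11 (8.95 and 7.71) and a leucine tRNA near Zfp692 (8.30 and 8.21). The lowest mean value among them was 4.66. The middle of the pair lay upstream of the tRNA start in 23 of 27 and inside the gene in 4, with a median of 21 bp upstream. Footprints covered a median of 51.4% of the gene in each library. A recurring window was present in 24 of the 27.

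Further start sites lay close to many members once wider annotations were read. With the comprehensive GENCODE set, 69 members (12.9%) had a TSS within 1 kb, and with RefSeq 85 (15.9%). Either annotation gave one to 116 members (21.8%) and to 9.08% of the other distal pairs. By strength the share rose from 7.49% of pairs with a smaller value under 1 to 28.0% at 8 or more. Without these 116, the remaining 417 members had a median CpG ratio of 0.484, and the other distal pairs treated in the same way had 0.257.

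The members were more GC-rich than other distal pairs and less so than promoters. The CpG ratio here is the number of CpG dinucleotides in the central 150 bp over that expected from the C and G content. Its median was 0.53 for members, 0.263 for other distal pairs and 0.863 for strong promoter pairs. Median GC content was 57.3%, 51.3% and 64%. Along the bands of strength the median CpG ratio went from 0.244 in the weakest to 0.781 in the strongest, with 0.641 at 5 to 6 and 0.581 at 6 to 8. The strongest band held 25 pairs, 12 of them with recurring windows. Median GC content went from 50% in the weakest band to 59.7% at 6 to 8, and was 54% at 8 or more.

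The CTCF consensus took a different course along these bands. It is a 12-base sequence of the insulator protein, searched on both strands in the central 150 bp. Of the members 60 held it (11.3%, exact 95% binomial interval 8.70 to 14.3), against 11.1% of other distal pairs and 1.01% of strong promoter pairs. By the smaller value the share rose from 7.09% under 1 to 18.7% at 2 to 3, and then fell to 15.2% at 4 to 5, 7.87% at 5 to 6 and 4.17% at 6 to 8. Of the 25 members at 8 or more 0 held it, which allows a share of up to 12%, and 12 of those held recurring windows. For pairs with the consensus the smaller value was mostly that of replicate 2. Of members with it 96.7% were higher in replicate 1, and of other distal pairs with it 88.6%.

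**Figure D2:**
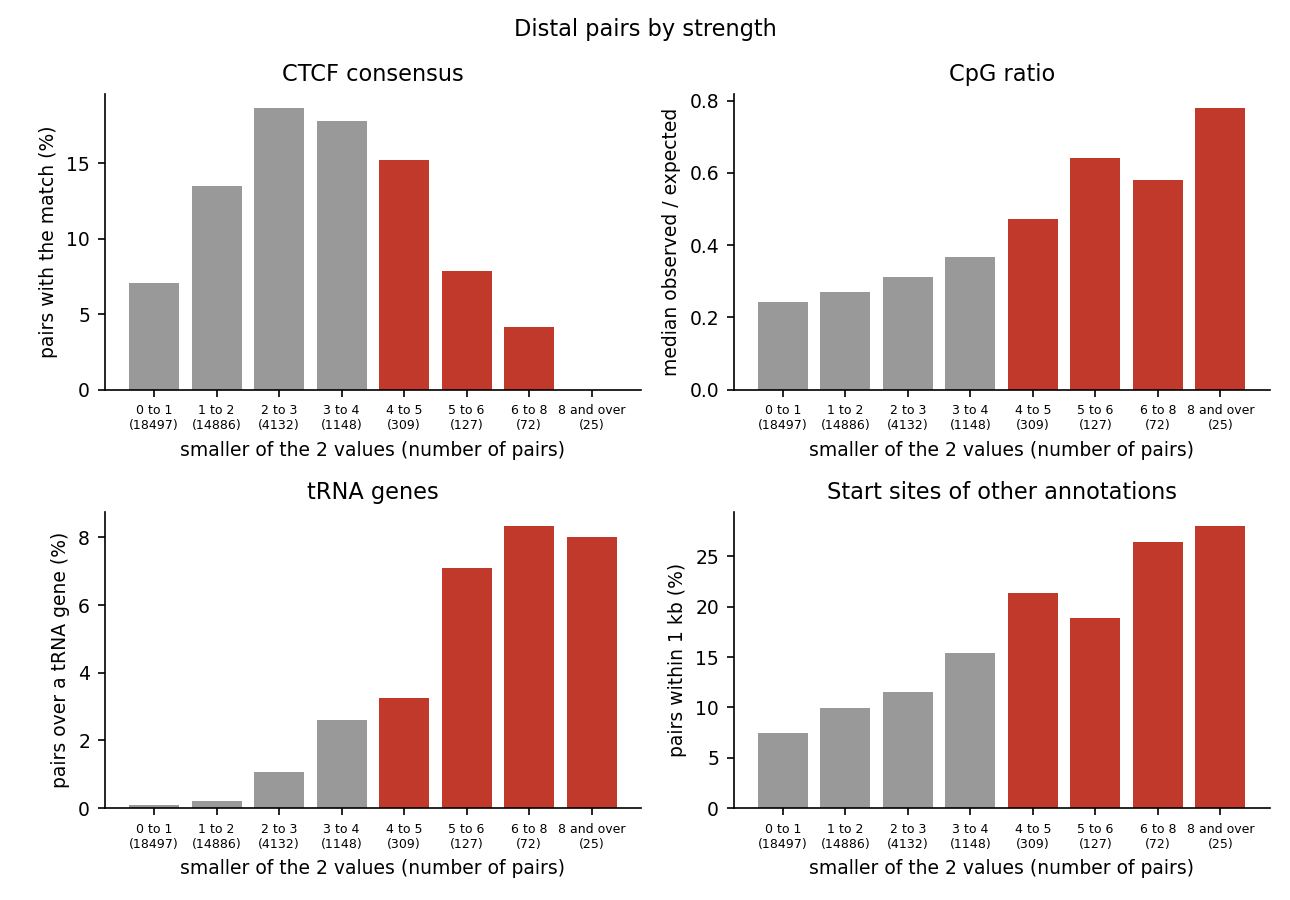
Distal pairs in bands of the smaller of their 2 values (x axis, number of pairs in brackets), with members in red. Bars give the share with the CTCF consensus, the median CpG ratio, the share over a tRNA gene, and the share within 1 kb of a TSS of comprehensive GENCODE or RefSeq. The CTCF share is highest at 18.7% in the band from 2 to 3 and is 0 in the last.

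The CTCF share differed with the library in which a distal pair reached a value of 4. Of the 2098 distal pairs with a value of at least 4 in replicate 1 only, 755 held the consensus (36%, interval 33.9 to 38.1). Of the 277 with such a value in replicate 2 only, 2 did (0.722%, interval 0.0876 to 2.58). The AP-1 sequence TGACTCA, bound by Fos and Jun dimers, had the opposite order, with 3% in the first set and 19.1% in the second. Of the 26 members with AP-1, however, 80.8% were higher in replicate 1, against 74.9% of all members. Members with CTCF had median values of 6.68 and 4.53 in the libraries, and 96.7% of them were higher in replicate 1, against 72.1% of members without it. The median log2 ratio of replicate 1 over replicate 2 was 0.51 with CTCF and 0.21 without. Within members of 55 to 60% GC it was 0.47 (26 pairs) and 0.18 (129 pairs), and in the 3 other bands from 40 to 70% GC it was likewise higher with CTCF. How the peak value was scaled is not stated, so the libraries' ratio may hold a difference in scale, which was not tested.

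**Figure D3:**
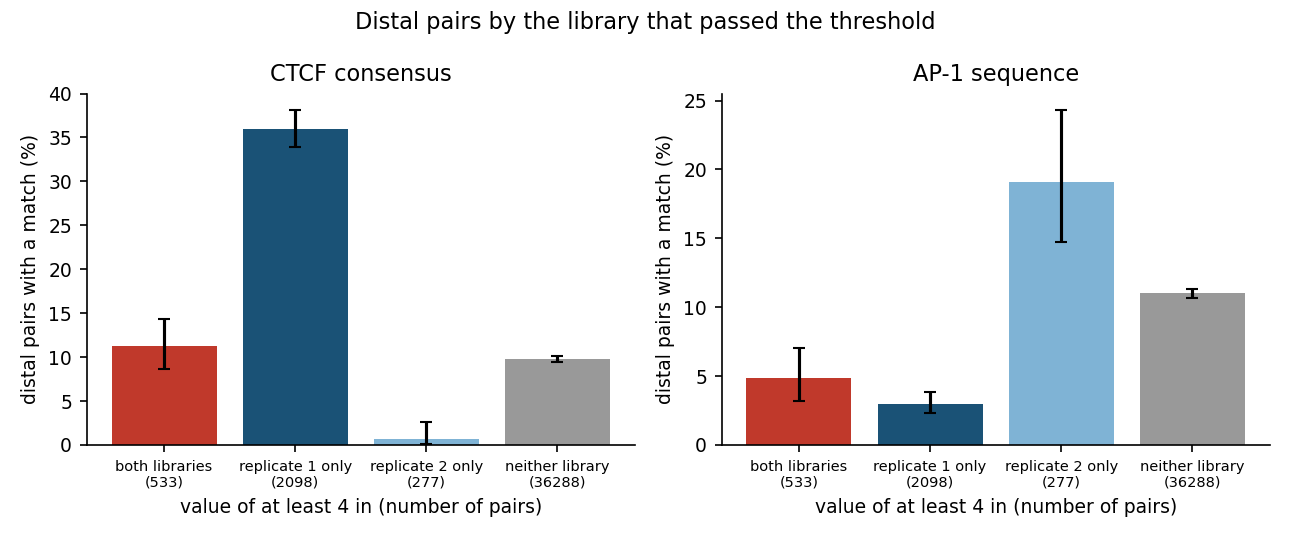
Share of distal pairs (y axis, %) that hold the CTCF consensus (left) or the AP-1 sequence (right), by whether the value reached 4 in both libraries, in a single library or in neither, with exact 95% binomial intervals. CTCF stands at 36% where replicate 1 alone passed and 0.722% where replicate 2 alone passed, and AP-1 at 3% and 19.1%.

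Sites for CTCF coincided with wide footprints. Of 62 matches in members, 61 had their middle in a footprint in replicate 1 and 61 in replicate 2, and in other distal pairs the shares were 97.7% and 95.7%. The footprints over member sites had median widths of 33 and 38 bp. Sites lay on the plus strand in 34 cases and on the minus strand in 28, at a median of 9.5 bp from the middle of the pair. The strongest, printed above, was in an intron of the transcription factor gene Camta1 (12.2 and 6.90). The next was in an intron of the kinase gene Nuak1 (10.1 and 7.52). CTCF members had a lower median CpG ratio (0.367) than the rest (0.568).

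Motifs usual at promoters were more frequent in members than in other distal pairs. Each was searched on both strands of the central 150 bp, and percentages are of pairs. The GC box GGGGCGGGG of SP and KLF factors was found in 28 members (5.25%, against 0.905% of other distal pairs and 14.6% of strong promoter pairs). The palindromic site of nuclear respiratory factor 1 (NRF1) was found in 23 (4.32%, 0.354% and 12%). The full cyclic AMP response element (CRE) TGACGTCA, bound by CREB and ATF factors, was found in 19 (3.56%, 0.419% and 4.98%). The ETS site CCGGAAGT was found in 9 (1.69%, 0.230% and 7.90%), and the site of the zinc finger protein ZNF143 in 6 (1.13%, 0.0543% and 3.54%). In all 5, members stood between the other distal pairs and the promoters.

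The RFX, EGR and NFI motifs had their highest share in the members, each on 14 members or fewer. For EGR the share of strong promoter pairs was near that of members, and for NFI the share of other distal pairs was. The X-box of RFX factors, known from genes of cilia, was found in 11 members (2.06%), 0.396% of other distal pairs and 0.258% of strong promoter pairs. The EGR site GCGTGGGCG, bound by factors induced by neuronal activity, was found in 6 (1.13%, 0.228% and 0.826%). The palindromic NFI site was found in 14 (2.63%, 1.84% and 0.490%).

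Several sequences were less frequent in members than in other distal pairs. AP-1 was found in 26 members (4.88% against 10.6%). The neurogenic sequence CAGATGG was found in 47 (8.82% against 11.6%), the E-box CAGCTG in 63 (11.8% against 15.5%) and the C/EBP sequence TTGCNNAA in 25 (4.69% against 6.92%). The E-box CACGTG, bound by USF, MYC and CLOCK factors, went the other way (30 members, 5.63% against 3.36%). The REST, YY1 and ZBTB33 sequences were each found in 0 of 533 members, which allows a share of up to 0.563%. Their shares of other distal pairs, 0.00776%, 0.0207% and 0.00259%, were below that, so these counts of 0 show no difference. At least 1 of the 26 motifs was present in 321 members and none in 212.

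**Figure D4:**
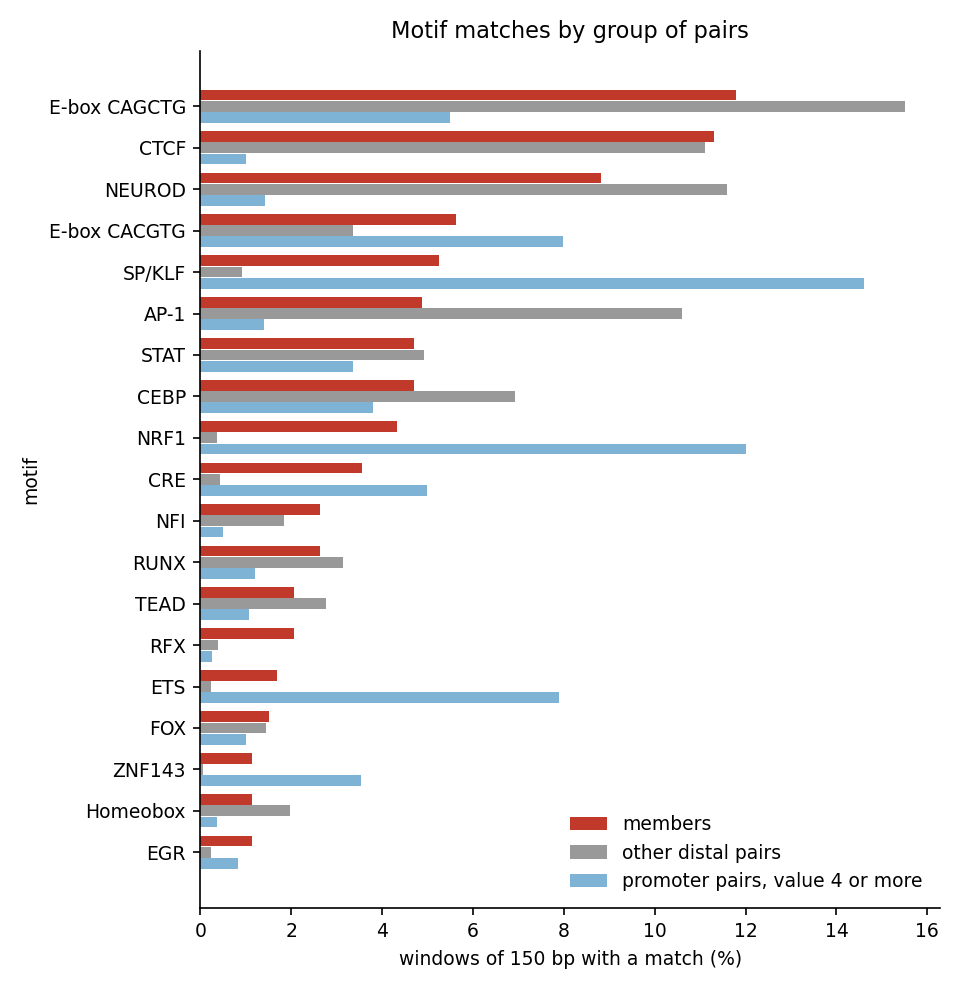
Share of pairs (x axis, %) whose central 150 bp hold each motif (y axis), for members, other distal pairs and strong promoter pairs. Motifs in at least 6 members are drawn, and the GC box, NRF1, CRE, ETS and ZNF143 bars of members stand between those of the other 2 groups.

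Most matches of the CRE, NRF1, GC box, RFX and NFI motifs lay in footprints. All 19 CRE sites of members had their middle in a footprint in replicate 2 and 16 did in replicate 1. For NRF1 it was 24 of 26 sites in each library, for the GC box 26 and 28 of 29, for RFX 10 of 11 in each and for NFI 13 of 14 in each. Sites in other distal pairs lay in footprints less often for CRE (68.1% and 82.5%), NRF1 (74.8% and 77.6%) and the GC box (64.4% and 61.9%). For NFI other distal pairs had 86.9% and 78.7%. For RFX they had 82.4% and 92.2%, near the 90.9% of members in each library. Among members, shares were lower for ETS sites, with 4 of 9 in each library, for ZNF143, with 2 and 3 of 6, and for AP-1, with 7 and 12 of 30. For AP-1 the 23.3% and 40% of members were near the 22% and 35.5% of other distal pairs. Footprints covered a median of 39.4% and 36.8% of a member's peak, a coverage these shares have to be read against. The strongest members with these sites in footprints of both libraries included one near the potassium channel gene Kcnn1 (8.94 and 8.12), which held NRF1 and a GC box. That member covered a RefSeq TSS of Kcnn1. Others were an intron of the MYC antagonist gene Mxi1 (8.36 and 8.90) with a CRE and intergenic sequence near Tarbp1 (8.41 and 8.48) and Irf2bp2 (8.96 and 7.33) with NFI. A CRE in an exon of C87436 outside its coding sequence had the highest values of the CRE members (11.3 and 7.39). The strongest with the neurogenic sequence in a footprint lay 37769 bp from Nanog (11.4 and 7.15). With CACGTG they lay near the corepressor gene Tle3 (9.48 and 7.88) and the dynein gene Dync1h1 (8.33 and 8.51). The Tle3 member covered a RefSeq TSS of Gm34157, and the Dync1h1 member lay 167 bp from a RefSeq TSS of B930059L03Rik. With CAGCTG the strongest lay near Zfp692, at the leucine tRNA gene given above, and in an intron of Diaph1, 32575 bp from Pcdhgc5.

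Members carried more footprints than other distal pairs. The mean was 3.83 footprints per member in replicate 1 and 4.18 in replicate 2, and 2.5 and 2.84 in other distal pairs. Footprints covered a median of 39.4% and 36.8% of the peak, against 19.3% and 18.0%. Their median width was 19 and 18 bp, against 11 bp in each library. In the part common to both peaks, 81.3% of 1941 footprints of replicate 1 overlapped one of replicate 2, and 82.9% of 1839 the reverse, where other distal pairs had 62.8% and 62.5%. Any shared base counted, and wider footprints with a larger coverage overlap more by placement alone. These shares therefore do not show that footprint positions agreed better in members. By the mean of the libraries, the most footprints were found near Fos (9 and 10), near Trappc9 (9 and 9) and near Zfp395 (9 and 8). The highest count in 1 library was 11 in replicate 2, near Phf19 and near Slc27a1, chosen here after their values were seen, with 2 and 5 in replicate 1. In 2 members a library had no footprint: near Morn3, where the peak of replicate 2 was 60 bp wide, and near Wnt7b, where that of replicate 1 was 60 bp wide. In the other library these had 7 and 8.

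Widths differed little. The median was 200 bp in replicate 1 and 220 bp in replicate 2, against 180 and 206 bp for other distal pairs and 220 and 240 bp for strong promoter pairs. By the mean of the libraries, the widest were near Fos (480 bp in both), near Trappc9 (420 and 440 bp) and the Cers5 member. The widest single peak was 500 bp in replicate 2, near Phf19, where replicate 1 had 120 bp. Bases with a q-value of at most 0.001 extended further. At 200 bp from the middle such a base was present in 53.6% and 75.8% of members, in 6.90% and 24.0% of other distal pairs and in 88.6% and 95.6% of strong promoter pairs.

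**Figure D5:**
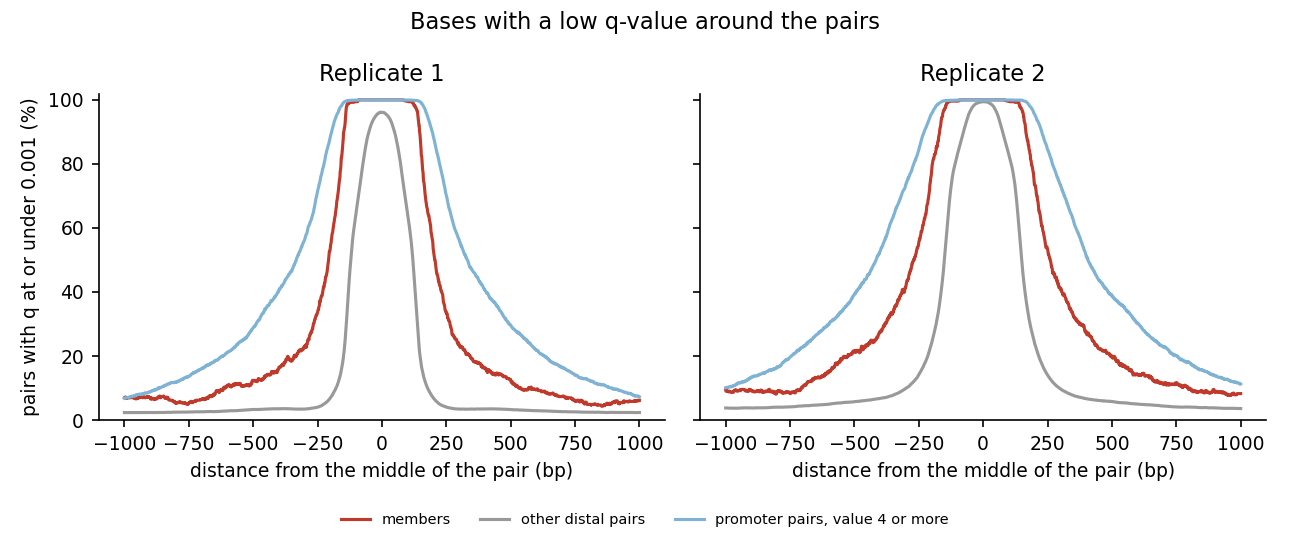
Share of pairs (y axis, %) with a q-value of at most 0.001 at each distance from the middle of the pair (x axis, bp), in replicate 1 (left) and replicate 2 (right). Members lie between other distal pairs and strong promoter pairs on both flanks.

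Members were nearer to genes than other distal pairs. The median distance to the nearest TSS was 7995 bp against 15879 bp, and to the nearest protein-coding TSS 13489 bp against 34079 bp. Within 5 kb of a TSS lay 185 members (34.7%, against 20.4%), and over 100 kb lay 7 (1.31%, against 5.19%). Intergenic sequence held 260 members (48.8%, against 42.9%), introns 223 (41.8%, against 51.3%), exons outside coding sequence 35 (6.57%, against 3.07%) and coding exons 15 (2.81%, against 2.75%). By chromosome, members made up between 0.996% of distal pairs on chromosome 19 and 2.02% on chromosome 7.

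The members were spread over 491 nearest protein-coding genes, of which 456 had 1 member and 29 had 2. Ptma, the prothymosin alpha gene, had 4, between 86487361 and 86532640 on chromosome 1, with mean values of 5.61 to 9.13. Zfp516, Klrb1c, Slc4a3 and Nfia had 3 each. These 4 genes were also nearest to 21, 6, 17 and 5 other distal pairs, and Ptma to 5. The Slc4a3 members lay 13295 to 524515 bp from its TSS, and those of Zfp516 1332 to 98179 bp. For Klrb1c all 3 held recurring windows. For Nfia, the gene of a factor that binds the NFI site, 2 members near its 5′ end lay within 1 kb of a TSS of comprehensive GENCODE. The other Nfia member covered a RefSeq TSS of Gm19417.

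Genes of the circadian clock and immediate early genes were nearest to more members than their share of other distal pairs. The lists were chosen with earlier results of these data known. Of the 19 clock genes, 4 were nearest to 6 members (1.13%, against 0.222% of other distal pairs). Nr1d1, which encodes a repressor of the clock, had 8.10 and 8.81 at 1113 bp from its TSS and 6.84 and 5.97 at 8048 bp. Per1, a period gene, had 7.29 and 7.49 at 1648 bp and held a CRE. The PAR-bZIP gene Hlf had 8.33 and 6.20 at 27066 bp and 7.57 and 5.68 at 20995 bp. Bhlhe41 had 6.54 and 4.69 at 9302 bp. The E-box CACGTG, the core of the site that CLOCK and BMAL1 bind, was present in 4 of these 6: both at Hlf, one at Nr1d1 and that at Bhlhe41. It lay in a footprint of both libraries at Hlf and Nr1d1. The Bhlhe41 member held 2 such sites, with 0 in a footprint in replicate 1 and 1 in replicate 2.

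Of 20 immediate early genes, which neurons induce on activity, 6 were nearest to 8 members (1.5%, against 0.251%). The strongest was near Fos, 18270 bp from its TSS (5.03 and 6.71). Npas4 had 5.01 and 6.63 at 11465 bp and Nr4a3 5.21 and 4.87 at 1533 bp. Junb had 5.97 and 4.62 and Nr4a1 5.45 and 4.60 at their stronger member, and both had 2. The stronger Junb member covered a Junb TSS of comprehensive GENCODE. Fosb had 5.13 and 4.70. None of the 8 held the CRE, and the Fos member held CACGTG.

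Few members lay nearest to genes of the cell type lists, and each share rests on 4 members or fewer. Astrocyte genes had 4 of 533 (0.750%, against 0.189%), 3 of them at Nfia and the last near Id4. The Id4 member covered a RefSeq TSS of Gm36183. Excitatory neuron genes had 2 (0.375%, against 0.305%), near the vesicular glutamate transporter gene Slc17a7 (6.51 and 5.10) and the NMDA receptor gene Grin2b (6.06 and 4.35). Pan-neuronal (0.188%, against 0.279%) and oligodendrocyte genes (0.188%, against 0.153%) had 1 each, near Dlg4 (5.42 and 6.02) and the myelin gene Mog (5.40 and 6.13). Inhibitory neuron, oligodendrocyte precursor, microglia, vascular, cohesin and Hox genes had 0, where the shares of other distal pairs ran from 0.0336% to 0.186%, below the 0.563% that 0 of 533 allows. Synapse and ion channel genes had 3 of 533 (0.563%, against 0.597%), the strongest of them near the sodium channel gene Scn8a (5.10 and 4.69). The clustered protocadherins, cell surface genes whose choice involves CTCF, had 2 (0.375%, against 0.0103%). These lay 32575 bp from Pcdhgc5 (8 and 7.33), in an intron of Diaph1, and 46458 bp from Pcdhb1 (5.16 and 6.07), on chromosome 18. The Diaph1 member was 1007 bp from a Diaph1 TSS of comprehensive GENCODE. Neither member held the CTCF consensus.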

How the data were processed

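DNase-seq was measured in 2 libraries of 1 group. Per the labels, the libraries are biological replicates, and read totals were not used here. The authors called peaks and footprints in each library separately on mm10, per the deposited notes. For the caller, its version and its thresholds nothing is stated (not given in the sources used here). Each deposited peak value is a signal that the authors gave per peak, with no stated scaling. The deposited footprint score was the same in every row, so only the intervals were used. The per-base q-values that the authors deposited are p-values adjusted for false discovery, listed up to 0.05.

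The members, motifs and gene lists were chosen with earlier results of these data known. Peaks of the shorter lists were paired where at least 1 bp overlapped one to one. TSS came from GENCODE M21 basic, tRNA genes from RefSeq. Motifs were matched exactly in 150 bp at the middle of the merged pair. A footprint counted where its middle lay in the peak. Windows of 36 bases were counted over both strands of the reference. Members were aligned with blastn 2.17.0 (50 bp or more, 90% identity or more). Other work used python 3.11.15, numpy 2.4.6, pandas 2.3.3, scipy 1.17.1 and matplotlib 3.10.9. The counting code was tested on simulated data with known answers, and 8 of 8 checks gave the planted value. Intervals are exact binomial at 95% and cover counting of regions only. The share that a count of 0 allows was instead taken as 3 over the number of regions, an approximation. The regions named are the 12 strongest, 3 on each side of the threshold, the 3 widest, the 3 with most footprints or highest repeat share, and those without footprints. They also include the 2 strongest per motif held in a footprint by over 2% of members, the strongest per gene list and genes nearest to 3 or more members. The families of aligned members, the tRNA genes, the second annotation and all clock and immediate early members were added after their values were seen. A few genes that the rule would name are not reported here. Alternatives are given in the closing section.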

Additional observations from a re-analysis of the deposited data

How the results depend on the processing

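No paired analysis was possible because the design has a single group. The number of members was 1681 at a value of at least 3, 224 at 5 and 1163 where the rank of value 4 in replicate 1 was applied to both lists. It ranged from 822 without replicate 1 to 2660 without replicate 2, and from 417 to 644 under the 9 other alternatives. The CTCF share was 15.7% at a value of 3, 5.80% at 5 and 30.2% with 1 mismatch allowed. It was 7.54% without replicate 1 and 31% without replicate 2. Leaving out a library gave 3.62 to 4.28 footprints per member and widths of 180 to 240 bp. The share of members with at least 50% masked bases was 0 without recurring windows, and also 0 when tRNA genes were left out with them. The median distance to a TSS was 9662 bp at a value of 3, 10494 bp when 2.5 kb from a TSS was required, 9045 bp with comprehensive GENCODE and RefSeq start sites and 8748 to 10468 bp with 1 library left out. The share in introns was 37.5% at a value of 5. Allowing a mismatch kept the 533 members and widened the match by construction. The other settings named here change which regions enter, and the cause of their shifts was not tested. The comprehensive GENCODE and RefSeq start sites and the removal of tRNA genes were chosen after seeing the data. Read depth, and so its limit on these values, was not analysed here.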
